A study of Mus musculus with 12 samples.

Results

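The cytosolic ribosomal protein genes encode the protein part of the ribosome that translates nuclear-encoded messenger RNA. They were taken from the count table by name, as gene symbols that begin with Rpl or Rps followed by a digit, P0, P1 or P2, or a, with pseudogenes and S6 kinase genes left out and at least 50 counts in total over the 12 libraries. This gave 83 of the 37991 genes in the table, 49 with large-subunit names and 34 with small-subunit names. The rule itself uses no measured difference between groups, but the family was chosen with earlier results of these data known. Of 85 candidates, Rpl10l with 1 count and Rpl39l with 7 counts stayed under the total.

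The libraries were made from islets of male C57BL/6 mice. Tg7 mice carry a transgene that overexpresses miR-7a2 specifically in β-cells, and their Wt littermates served as controls. Islets were taken at 2w, when Tg7 mice were normoglycaemic, and at 12w, when they were hyperglycaemic, with 3 libraries of each genotype at each age. Each library pooled islets of at least 3 animals, so the spread between libraries is that between pools and not between single mice. Since these are bulk islets, fewer cells of a type and less RNA per cell cannot be told apart.

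A ribosome holds 1 copy of almost every ribosomal protein, and cells make these proteins in matched amounts. Their messages are short, abundant, and typically begin with a C followed by a run of pyrimidines, the 5′ terminal oligopyrimidine (TOP) tract, through which mTOR signalling and the RNA-binding protein Larp1 control their translation. In β-cells, whose main product is insulin, the same ribosomes translate the insulin messages. RNA-seq counts messages and not proteins, so nothing here measures ribosomes or translation.

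Not all 83 genes encode a canonical subunit. Rpl3l, Rpl22l1, Rpl36al, Rps27l and Rps4y2 are near copies of Rpl3, Rpl22, Rpl36a, Rps27 and Rps4x. Rps4y2 is a synonym of Rps4l, which RefSeq lists as a transcribed pseudogene. Rpl7l1 and Rps19bp1 match the naming rule but act in ribosome assembly. The other 76 are called canonical members below. Rpl41 had no named row and was not analysed here.

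The first bases of the genes show the sequence feature the family is known for, and are given before the values. RefSeq start sites on GRCm38.p6 were listed for 62 of the 83 genes. In each line below, 30 bases centred on the annotated start are read on the gene's strand, and capitals mark a run that begins with C, continues with 4 or more C or T, and starts within 10 bases of the annotated start.
Rps6 (chr4:86857353-86857382, minus strand): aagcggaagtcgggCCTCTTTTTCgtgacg
Rps27 (chr3:90213634-90213663, minus strand): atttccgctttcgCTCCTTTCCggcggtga
Rps24 (chr14:24490663-24490692, plus strand): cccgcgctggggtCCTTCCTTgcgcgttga
Rpl38 (chr11:114668565-114668594, plus strand): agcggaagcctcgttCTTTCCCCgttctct
Rpl36a (chrX:134585639-134585668, plus strand): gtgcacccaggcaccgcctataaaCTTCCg
Rpl22l1 (chr3:28805493-28805522, plus strand): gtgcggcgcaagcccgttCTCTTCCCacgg
Rpl36al (chr12:69184053-69184082, minus strand): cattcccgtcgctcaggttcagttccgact
Rpl7l1 (chr17:46782642-46782671, minus strand): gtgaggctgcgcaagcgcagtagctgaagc

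Such a run was present in 37 of the 62 genes (59.7%), against 34.4% of all 27025 genes in the RefSeq table. A gene was counted if any of its listed starts had a run, so genes with several starts had more chances. Runs of 8 or more bases were present in 24 of the 62 (38.7%), against 9.43% of all genes. Rps6, Rps27, Rps24 and Rpl38 are canonical members with a long run at the start shown. Another listed start of Rps24 had no such run. The near copy Rpl22l1 had one as well, while none was found in the windows of Rpl36al and Rpl7l1. A missing run says only that these letters were not in this window.

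The miRNA that Tg7 islets overexpress is shown next, since its seed can be searched for in the same genes. The mature miR-7a-5p of RefSeq reads as follows, 5′ to 3′, with the seed (bases 2 to 8) in capitals.
miR-7a-5p: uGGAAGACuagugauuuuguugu
A match to the seed in a DNA-letter 3′ UTR was counted as GTCTTCC (pairs with bases 2 to 8) or TCTTCCA (pairs with bases 2 to 7, followed by A), on the message strand only, and overlapping matches of both kinds were counted as 1 gene. An annotated 3′ UTR was found for 82 of the 83 genes in the mm9 (NCBIM37) annotation. Of these, 4 held a match (4.88%), against 3130 of 14251 tested genes with a 3′ UTR (21.96%). The median 3′ UTR length was 68.5 bases in the members and 935 bases in all these genes. Among 3′ UTRs of up to 150 bases, 0 of 56 members and 0.952% of 1260 genes held a match. Sites from 3 of these members follow, 1 from each, with 10 bases on either side and the match in capitals.
Rpl5 (NCBIM37 chr5:108337308-108337314, plus strand): tgggtttctaGTCTTCCtgggaggtgt
Rpl21 (NCBIM37 chr5:147648512-147648518, plus strand): attgtcatcaTCTTCCAtcatgtcttc
Rps15a (NCBIM37 chr7:125251912-125251918, minus strand): ccagagacttGTCTTCCtactaagttc

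None of the 4 genes with a match passed the test in either comparison of Tg7 with Wt. Log2 fold changes at 2w were 0.45 for Rpl5, 0.38 for Rpl21 and 0.31 for Rps15a, close to the median of the family given below. The matches lie in the annotated transcript, and whether islets use these 3′ UTRs was not tested. Rpl5, together with Rpl11, forms the complex with 5S RNA that binds Mdm2 when ribosome assembly is disturbed.

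The family took a larger share of all counts in Tg7 than in Wt islets at both ages. At 2w, the share was 2.11%, 1.83% and 1.71% in the 3 Wt libraries and 2.68%, 2.98% and 2.44% in the 3 Tg7 libraries. At 12w, it was 1.79%, 1.92% and 1.58% in Wt and 2.69%, 2.59% and 2.67% in Tg7. The groups did not overlap at either age, and their means were 1.88% ± 0.205 (SD, n = 3) against 2.70% ± 0.271 at 2w and 1.76% ± 0.168 against 2.65% ± 0.0496 at 12w.

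The total that these shares are taken from also differed between the groups. The insulin genes Ins1 and Ins2 held 10.1% to 15.4% of all counts in 2w Wt, 1.84% to 4.09% in 2w Tg7, 14.9% to 29.99% in 12w Wt and 8.08% to 8.24% in 12w Tg7. With both genes taken out of the total, the share of the family was 2.50%, 2.05% and 1.90% in 2w Wt and 2.75%, 3.11% and 2.49% in 2w Tg7. At 12w it was then 2.56%, 2.62% and 1.86% in Wt and 2.92%, 2.82% and 2.91% in Tg7. Without the insulin genes the groups overlapped at 2w, where the highest Wt library slightly exceeded the lowest Tg7 library, and they did not overlap at 12w.

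**Figure D1:**
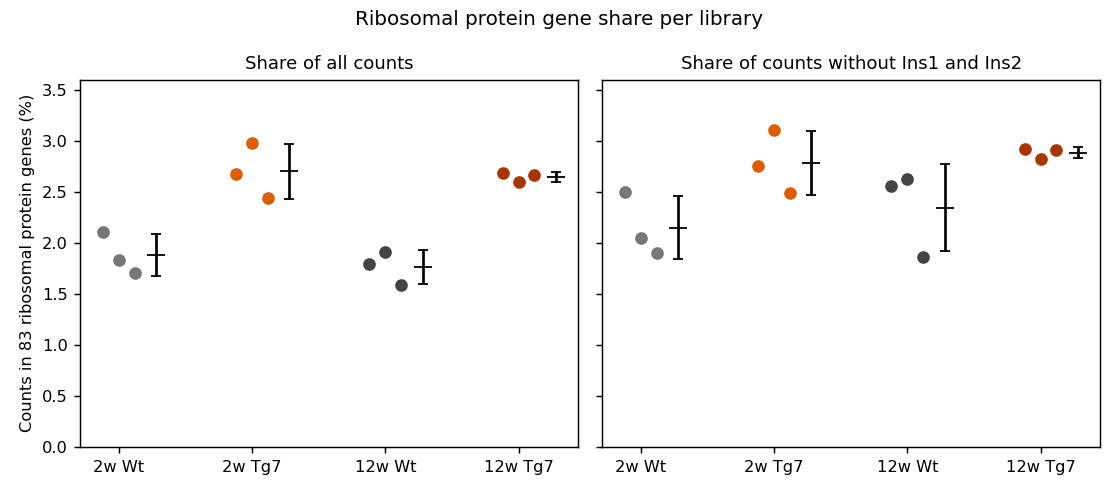
Share of counts (%, y axis) in the 83 ribosomal protein genes in each of the 12 libraries (points), with group mean ± SD (n = 3) beside them, for all counts (left) and without Ins1 and Ins2 in the total (right). On the left Tg7 lies above Wt at both ages; on the right the groups touch at 2w, and 12w Wt spreads from 1.86% to 2.62%.

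Total counts ranged from 11610697 to 17515758 per library, and each library held between 207725 and 458234 counts in the family. Markers of β-, α-, δ- and PP cells were present in every group. One library, 2w Tg7 replicate 1, held 18.6 CPM (counts scaled to the size of the library) of T and NK lymphocyte markers against 0.106 to 1.35 in the other 11, and 23.3 CPM of B lymphocyte markers against 1.86 to 10.5. All values below are CPM scaled with TMM, a method that sets most genes to an equal level between libraries, and all adjusted p values come from edgeR's quasi-likelihood test over 15961 genes unless another tool is named. All 83 members passed the filter on low counts.

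At 2w, the estimates of the canonical genes lay above 0 together in Tg7 islets, and few of them passed the test. These estimates come from the same few libraries and are not independent of each other. Each library was also summarised by the median of the 83 members in log2(CPM + 1), relative to each gene's mean over the 12 libraries. It was −0.02, −0.36 and −0.49 in 2w Wt and 0.03, 0.30 and −0.10 in 2w Tg7, so the groups overlapped. All 76 canonical members had a log2 fold change above 0, from 0.10 to 0.73, and the estimates of Rpl7l1, Rps4y2, Rpl36al, Rps19bp1 and Rpl22l1 were below 0. The median over the 83 members was 0.35, against 0.03 over all genes tested and −0.15 over 1666 other protein-coding genes with a mean of 100 CPM or more. At an adjusted p under 0.05, 4 of 83 (4.82%) were upregulated, with Rpl36a, Rpl3 and Rpl4 among them, and none was lower; at an unadjusted p under 0.05, 33 were higher and 1 lower, against 15.7% and 11.2% of all genes at that threshold. At the adjusted threshold, 6.07% of all genes were called higher and 4.55% lower, so the share of members called was not above the background.

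Rpl36a (mm9 chrX:131120193-131122601, plus strand), a large-subunit gene, had the largest change among the canonical members. The 2w Wt libraries held 84.7, 62.2 and 55.8 CPM and the 2w Tg7 libraries 105, 126 and 106 CPM. All Tg7 libraries lay above all Wt libraries, and the difference was 0.73 ± 0.19 on the log2 scale (± SE; adjusted p = 0.0266).

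Rpl3 (mm9 chr15:79908211-79913836, minus strand) helps to form the peptidyl transferase centre of the large subunit. It stood at 360, 328 and 327 CPM in 2w Wt and at 435, 484 and 418 CPM in 2w Tg7, again without overlap, and its log2 fold change was 0.40 ± 0.11 (adjusted p = 0.0408). Rpl4 (mm9 chr9:64021194-64026369, plus strand), which lines the tunnel through which the new protein leaves the ribosome, was the most counted member. Its level was 806, 658 and 613 CPM in 2w Wt and 869, 1117 and 928 CPM in 2w Tg7, with a log2 fold change of 0.49 ± 0.14 (adjusted p = 0.0447). Every 2w Tg7 library exceeded every 2w Wt library for Rpl4 too, although the first Wt library came close to the lowest Tg7 one.

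Members chosen for their known roles did not pass the test at 2w. Apart from the stalk proteins, given in the next paragraph, their estimates ran from 0.26 to 0.53, against a family median of 0.35. Rpl5 and Rpl11 had log2 fold changes of 0.45 ± 0.14 (adjusted p = 0.0624) and 0.42 ± 0.15 (adjusted p = 0.0805). Rpsa, also known as the laminin receptor, had 0.48 ± 0.17 (adjusted p = 0.0874), and Rpl13a, known for a role outside the ribosome in silencing inflammatory messages, had 0.53 ± 0.20 (adjusted p = 0.0971). Exons of Flt3l and small nucleolar RNA genes on the same strand cover 41.3% of the exon bases of Rpl13a. Rps6, the substrate of the S6 kinases, had 0.33 ± 0.15, Rps19, a gene mutated in Diamond-Blackfan anaemia, 0.41 ± 0.17, Rpl10 0.26 ± 0.18, and Rps27a, made as a fusion with ubiquitin, 0.28 ± 0.15, with adjusted p values from 0.144 to 0.370.

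The acidic stalk proteins Rplp0, Rplp1 and Rplp2 recruit translation factors to the ribosome, and Rplp0 was the reference gene of the study's quantitative PCR. Rplp0 was at 592, 526 and 478 CPM in 2w Wt and 625, 709 and 514 CPM in 2w Tg7. At 12w it was at 708, 642 and 536 CPM in Wt and 629, 573 and 618 CPM in Tg7. The groups overlapped at both ages. The log2 fold change was 0.21 ± 0.15 at 2w (adjusted p = 0.393) and −0.05 ± 0.15 at 12w (adjusted p = 0.848). When libraries were scaled by total count alone, these values became 0.38 (adjusted p = 0.0840) and 0.41 (adjusted p = 0.0300). Rplp1 and Rplp2 had log2 fold changes of 0.13 ± 0.22 and 0.30 ± 0.20 at 2w.

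The number of members called at 2w rested on single libraries and on the scaling. It was 0 without Wt replicate 2, Wt replicate 3, Tg7 replicate 2 or Tg7 replicate 3 of that age (2.29% to 5.03% of all genes). It was 2 without any one of the 12w Tg7 libraries (4.16% to 4.56%), which enter only through the shared estimate of spread. It was 7 without 2w Wt replicate 1 (2.98% of all genes called higher) and 21 without 12w Wt replicate 4 (9.80%). Without the library that held lymphocyte markers it was 3 (6.48%), with a median of 0.38. With library size alone as the scaling, 42 members were called higher against 10.5% of all genes, and 0 lower against 1.99%. DESeq2 called 12 higher against 8.66% of all genes and 0 lower against 5.72%. Rpl36a was called in all 10 alternative fits, Rpl3 in 8 and Rpl4 in 7. The median of the members stayed above 0 in all 10 alternative fits (0.31 to 0.52) and without each library in turn (0.23, without 2w Tg7 replicate 2, to 0.49).

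Scaling by library size alone moved the median of all genes as well, to 0.19 at 2w and 0.43 at 12w. Relative to the median of all genes, the median of the members was 0.32 higher at 2w under either scaling, and 0.14 (TMM) or 0.17 (library size alone) higher at 12w. By overlap of the groups on the TMM scale, 17 of 83 members (20.5%) lay wholly higher in 2w Tg7 and 2 wholly lower, against 17.8% and 18.1% of all genes. With library size alone, 66 members lay wholly higher and 0 wholly lower, against 29.2% and 7.52% of all genes.

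**Figure D2:**
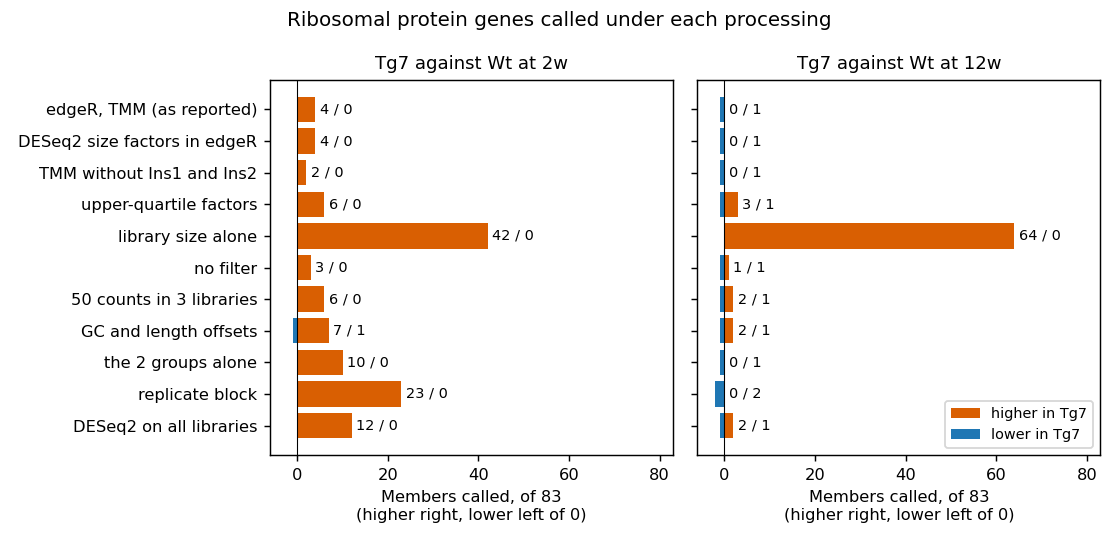
Number of the 83 members with an adjusted p under 0.05 for Tg7 against Wt at 2w (left) and 12w (right) under each processing (rows); orange bars count members higher in Tg7, blue bars members lower, and the figures beside them give higher / lower. The count is 4 / 0 at 2w and 0 / 1 at 12w as reported, and reaches 42 and 64 higher when libraries are scaled by their total alone.

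At 12w, no canonical member passed the test. The median log2 fold change of the 83 members was 0.13, against −0.01 over all genes, and 62 of the 83 estimates were above 0. The median of the members per library, relative to their means over all libraries, again overlapped. It was 0.30, 0.12 and −0.30 in 12w Wt and 0.23, 0.12 and 0.17 in 12w Tg7. The only call in edgeR was Rpl7l1, which fell; this is 1 of 83 (1.20%), against 11.2% of all genes called lower and 12.5% called higher. At an unadjusted p under 0.05, 6 members were higher and 1 lower, against 18.2% and 17.1% of all genes at that threshold, and DESeq2 called Rps18 and Rps3 higher and Rpl7l1 lower, against 13.1% and 12.3% of all genes. The highest estimates among the canonical members were those of Rps18 (0.49 ± 0.18, adjusted p = 0.0620) and Rps3 (0.47 ± 0.17, adjusted p = 0.0648), both of the small subunit. On the TMM scale, 20 members lay wholly higher in 12w Tg7 and 1 wholly lower, against 20.7% and 16.3% of all genes. Scaled by library size alone, 72 lay wholly higher and 0 wholly lower, against 44.7% and 3.42% of all genes.

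Rpl7l1 (mm9 chr17:46910856-46919605, minus strand), the assembly relative of Rpl7, was at 71.6, 68.2 and 75.9 CPM in 12w Wt and at 50.7, 48.0 and 56.9 CPM in 12w Tg7, so that the lowest Wt library lay well above the highest Tg7 library. It fell by 0.47 on the log2 scale, with an SE of 0.11 and an adjusted p of 0.00637. At 2w it was at 63.5, 61.4 and 58.3 CPM in Wt and at 49.3, 48.6 and 53.0 CPM in Tg7, again without overlap, with a log2 fold change of −0.28 ± 0.11 (adjusted p = 0.108). The 12w call held without each of the 12 libraries in turn and in 9 of 10 alternative fits, the exception being library size alone.

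The call count of higher members at 12w also depended on the scaling. With library size alone, 64 members were called higher and 0 lower, against 32.6% and 2.26% of all genes. Without 12w Wt replicate 4, the median of the members was −0.03 and 3 members were called lower (10.7% of all genes), and without 12w Wt replicate 2, 3 members were called higher (12.1%). The median was 0.24 without 12w Wt replicate 1.

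**Figure D3:**
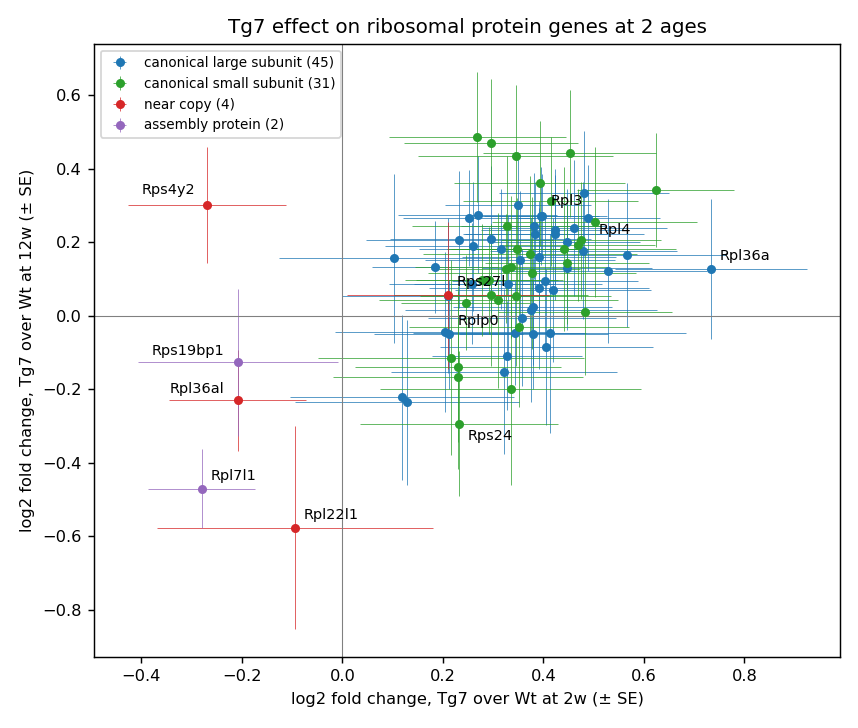
Log2 fold change of Tg7 over Wt at 2w (x axis) and at 12w (y axis) for 82 members, with SE as bars and colours for canonical large- and small-subunit genes, near copies and assembly proteins; Rpl3l is left out because of its low count. All canonical genes lie right of 0 at 2w, while Rpl7l1, Rps4y2, Rpl36al, Rps19bp1 and Rpl22l1 lie left of 0.

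The effect of the transgene was not shown to differ between the ages. The test of the difference called 0 members in edgeR and 0 in DESeq2, against 0.871% of all genes called higher and 0.307% lower in edgeR and 2.13% and 1.31% in DESeq2. At an unadjusted p under 0.05, 1 member was higher (Rps4y2, 0.57 ± 0.22) and 1 lower (Rpl36a, −0.61 ± 0.27), against 7.20% and 7.29% of all genes, with adjusted p values of 0.261 and 0.320. The median difference (12w minus 2w) was −0.24, and it was 0.06 with library size alone. It was −0.11 without 2w Tg7 replicate 2, −0.13 without 2w Wt replicate 3, −0.14 without 12w Wt replicate 1, and −0.39 without 2w Wt replicate 1 or without 12w Wt replicate 4.

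Large- and small-subunit genes had close medians. The median log2 fold change at 2w was 0.38 over 45 canonical large-subunit genes and 0.34 over 31 canonical small-subunit genes. At 12w both medians were 0.13.

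To ask which members moved apart from the family, counts were also scaled to the sum of the members in each library, which removes any shift that the members share. On this scale edgeR called 0 members at 2w and 0 at 12w. At an unadjusted p under 0.05, 1 member was higher and 4 were lower at 2w, and 0 were higher and 3 lower at 12w. The same threshold took 5.69% of all genes as higher and 25.1% as lower at 2w, and 11.1% and 17.3% at 12w. By adjusted p on this scale, 1.35% of all genes were called higher and 6.93% lower at 2w, and 6.25% higher and 7.31% lower at 12w. DESeq2 on the same scale called Rpl36al, Rpl7l1 and Rps4y2 lower at 2w and Rpl22l1 and Rpl7l1 lower at 12w, all of them near copies or assembly proteins, against 12.1% and 9.34% of all genes. It called none higher, against 2.63% and 6.96% of all genes.

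In edgeR, the lowest values at 2w were those of Rps4y2 (−0.65 ± 0.21, adjusted p = 0.0652), Rpl7l1 (−0.63 ± 0.22, adjusted p = 0.0791) and Rpl36al (−0.56 ± 0.19, adjusted p = 0.0694). At 12w they were those of Rpl22l1 (−0.65 ± 0.23, adjusted p = 0.0647) and Rpl7l1 (−0.64 ± 0.22, adjusted p = 0.0636). Among the canonical members, the estimates on this scale ran from −0.25 to 0.40 at 2w and from −0.40 (Rps24) to 0.35 at 12w.

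The balance between a near copy and its parent gene was then taken as the ratio of their counts within a library, which no scaling between libraries can alter. With 3 libraries against 3, an exact two-sided permutation test cannot give a p below 0.1, and 20 such comparisons were made, so none could pass a threshold of 0.05; groups that did not overlap had p = 0.1, and 0.182 after Benjamini-Hochberg adjustment over the 20. The groups were apart in 11 of the 20 comparisons. These cover 5 pairs of genes and reuse the same libraries, and ratios of other gene pairs were not taken, so this count has no background. For single genes on the TMM scale, 17.8% of all genes lay wholly higher and 18.1% wholly lower in 2w Tg7.

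The pair Rpl36al and Rpl36a, which encode nearly the same large-subunit protein and whose coding sequences were 87.9% identical, had the largest difference in ratio at 2w. The ratio of Rpl36al to Rpl36a was 1.62, 2.16 and 2.05 in 2w Wt and 1.09, 0.897 and 1.01 in 2w Tg7. At 12w it was 1.59, 1.81 and 1.90 in Wt and 1.32, 1.34 and 1.42 in Tg7. Thus, by counts not corrected for gene length, the near copy exceeded its parent in all 6 Wt libraries. It also did so in every Tg7 library except 2w replicate 2. The ratio in Tg7 lay below that in Wt at both ages without overlap. The longest identical stretch in the coding sequences was 24 bases; how reads that fit both genes were counted is not stated.

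Rpl22l1 can replace Rpl22 in the large subunit, and Rpl22 is known to repress its paralogue. The ratio of Rpl22l1 to Rpl22 was 0.695, 0.607 and 0.536 in 2w Wt and 0.431, 0.422 and 0.476 in 2w Tg7. At 12w it was 1.31, 0.877 and 0.520 in Wt and 0.509, 0.506 and 0.507 in Tg7. Tg7 lay below Wt at both ages, at 12w by a narrow margin to Wt replicate 4. Rpl22l1 itself was at 134, 95.9 and 47.5 CPM in 12w Wt and at 67.5, 59.1 and 58.6 CPM in 12w Tg7, which overlapped (−0.58 ± 0.28, adjusted p = 0.152). Rpl22 stood at 0.39 ± 0.13 on the same scale at 2w (adjusted p = 0.0712) and 0.27 ± 0.13 at 12w (adjusted p = 0.163).

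The ratio of Rpl7l1 to Rpl7 was 0.152 to 0.196 in 2w Wt, 0.0925 to 0.132 in 2w Tg7, 0.177 to 0.205 in 12w Wt and 0.110 to 0.121 in 12w Tg7, so that Tg7 was below Wt at both ages. That of Rps4y2 to Rps4x was 0.122 to 0.160 in 2w Wt against 0.0765 to 0.0906 in 2w Tg7, and the groups overlapped at 12w. The ratio of Rps27l, a p53-inducible relative of Rps27, to Rps27 overlapped at 2w and was higher in Tg7 at 12w (0.297 to 0.310 against 0.243 to 0.277). Rpl3l, the form of striated muscle, had at most 0.854 CPM in any library and 55 counts in all, too few to compare with Rpl3. Rpl39, whose near copy Rpl39l stayed under the total, had log2 fold changes of 0.41 ± 0.27 at 2w (adjusted p = 0.359) and −0.05 ± 0.27 at 12w (adjusted p = 0.924), with the groups overlapping at both ages.

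**Figure D4:**
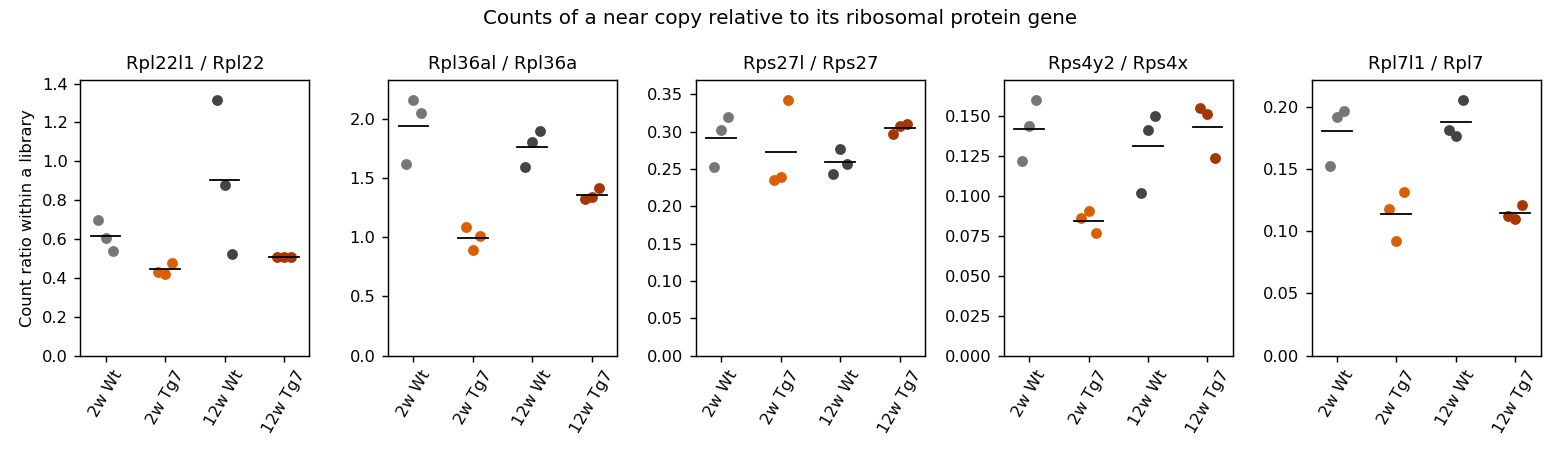
Ratio of the counts of a near copy or relative (Rpl22l1, Rpl36al, Rps27l, Rps4y2, Rpl7l1) to its parent gene within each library (points; bars are group means, n = 3), 1 panel per pair with its own y axis from 0. Tg7 lies below Wt at both ages for Rpl22l1, Rpl36al and Rpl7l1.

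Between 2w and 12w, the members had a median log2 fold change of 0.36 in Wt islets, against 0.04 over all genes. With library size alone it was −0.07, with 0 members called higher (2.04% of all genes) and 0 lower (23.8%). The 4 members called higher were Rpl38 (0.88 ± 0.23, adjusted p = 0.0173), Rps29 (0.86 ± 0.27, adjusted p = 0.0415), Rps21 (0.69 ± 0.21, adjusted p = 0.0358) and Rps24 (0.63 ± 0.20, adjusted p = 0.0454). The comparison shares its 2w and 12w Wt libraries with those of Tg7 against Wt. The 4 calls are 4.82% of the members, against 7.90% of all genes called higher and 7.91% lower. Rpl38, known for a role in translating Hox messages, was at 122, 106 and 92.4 CPM in 2w Wt and at 275, 191 and 124 CPM in 12w Wt. The 12w Wt libraries differed widely among themselves, and the lowest of them lay just above the highest 2w library. By overlap of the groups on the TMM scale, 2 members lay wholly higher in 12w Wt and 0 wholly lower, against 15.7% and 15.6% of all genes. Scaled by library size alone, 0 lay wholly higher and 11 wholly lower, against 3.94% and 34.4% of all genes.

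Without 12w Wt replicate 1 no member was called higher with age (6.54% of all genes) and the median was 0.22. None was called without 2w Wt replicate 2 (3.41%) or 3 (3.43%). In contrast, 44 were called without 12w Wt replicate 4 (11.4%) and 11 without 2w Wt replicate 1 (6.00%). The count was 1 without 12w Wt replicate 2 (8.0%), 2w Tg7 replicate 1 (6.96%) or any one 12w Tg7 library (5.57% to 6.16%). The number called in the Wt comparison was 13 with DESeq2, against 10.7% of all genes called higher and 9.48% lower. In Tg7 islets the median was 0.11, against −0.01 over all genes, and the only call was Rps4y2. That median was −0.0051 with library size alone and −0.0018 with GC and length offsets, and it was 0.07 without 12w Tg7 replicate 1, 0.02 without 2w Tg7 replicate 3 and 0.21 without 2w Tg7 replicate 2. Rps4y2 was at 49.8, 56.5 and 35.3 CPM in 2w Tg7 and at 87.4, 77 and 66.7 CPM in 12w Tg7, without overlap, a log2 fold change of 0.71 ± 0.16 (adjusted p = 0.00912), where 7.02% of all genes were called higher and 6.01% lower. This call was lost without 12w Tg7 replicate 1. In Tg7, 8 members lay wholly higher at 12w and 1 wholly lower, against 21.5% and 19.2% of all genes, and by library size alone 7 lay wholly higher and 12 wholly lower, against 14.9% and 26.6%.

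Of the 4 members called with age in Wt, Rps29, Rpl38 and Rps21 have coding sequences of 171, 213 and 252 bases and Rps24 one of 402, against a median of 465 over the canonical members, and the 12w Wt libraries differed from each other by length. In 12w Wt replicate 1, the 8 canonical members with a coding sequence of up to 300 bases lay at a median of 0.83 above their mean over the 12 libraries on the log2(CPM + 1) scale, and the 22 with 600 bases or more at 0.05. The corresponding values were 0.28 and 0.08 in 12w Wt replicate 2 and −0.35 and −0.22 in replicate 4. In the 3 libraries of 12w Tg7, the short members lay between 0.13 and 0.32 and the long ones between 0.10 and 0.20. Genes outside the family showed the same order with age in Wt: the median log2 fold change was 0.35 over 348 other protein-coding genes of up to 300 coding bases and 0.01 over 12594 of 600 or more. The part of message length in these results was not tested further, except through the GC and length offsets. These used the length of the merged exons of each gene and not its coding length. With them, the median with age in Wt was 0.18 in place of 0.36 and 1 member was called higher.

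**Figure D5:**
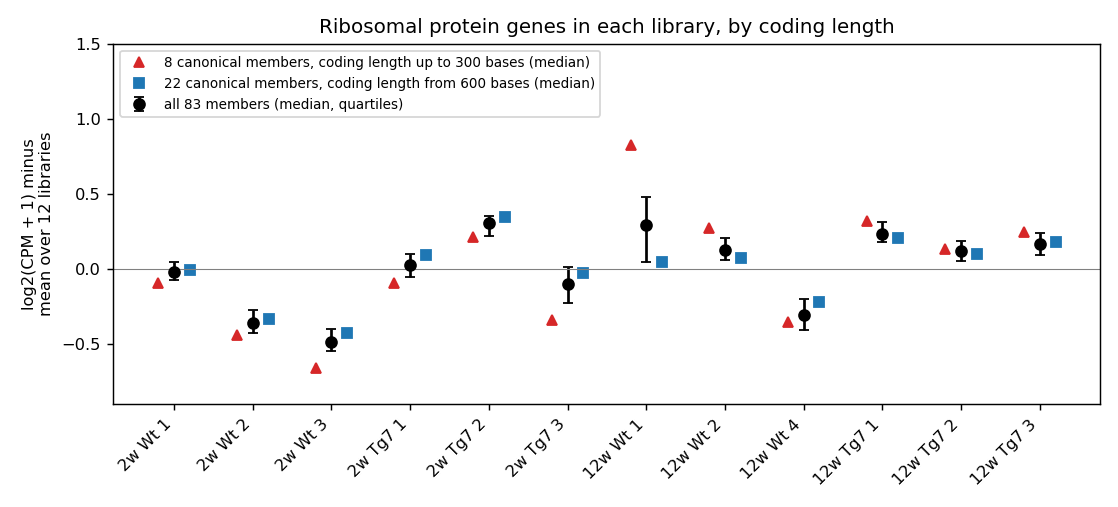
Level of the members in each library as log2(CPM + 1) minus the gene's mean over the 12 libraries (y axis): black points and bars give the median and quartiles of all 83, triangles the median of 8 short and squares that of 22 long canonical genes. In 12w Wt replicate 1 the short genes lie far above the long ones (0.83 against 0.05), and in 2w Tg7 replicate 3 below them (−0.34 against −0.02).

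Levels were compared between genes per kilobase of merged exons, as the mean over the 12 libraries. The highest were Rps27 (687 CPM per kilobase), Rplp1 (633) and Rpl4 (592), and the lowest Rpl3l (0.166), Rps19bp1 (17.3) and Rpl7l1 (22.6). The median over the canonical members was 202 CPM per kilobase. These order the genes only loosely, because merged exons include retained introns: per kilobase of the main annotated transcript Rpl10 came first, at 808, having been at 314 by merged exons. The place of the near copies depended on this choice: Rpl22l1 was at 133 CPM per kilobase against 36.8 for Rpl22 by merged exons, and at 133 against 226 by main transcript. Rpl36al lay above Rpl36a by both, at 102 against 57.7 and at 262 against 198, and Rps4y2 lay below Rps4x by both, at 64.6 against 304 and 509.

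Markers of several cell types differed between the same groups. Summed markers of β-cells (9 genes, none at 0 in any group) ranged from 110577 to 180217 CPM in 2w Wt and from 27327 to 52343 CPM in 2w Tg7, and from 198328 to 481682 CPM in 12w Wt against 100164 to 105537 CPM in 12w Tg7. This sum includes Ins1 and Ins2, so it is not separate from the insulin share given above, and the other markers were not summed apart. Markers of stellate cells and fibroblasts (9 genes, none at 0) ranged from 322 to 467 CPM against 509 to 669 CPM at 2w and from 87.4 to 149 CPM against 385 to 407 CPM at 12w. Endothelial markers (8 genes, none at 0) overlapped at 2w and were 372 to 501 CPM in Wt against 793 to 854 CPM in Tg7 at 12w. PP-cell markers at 2w were 4260 to 6465 CPM in Wt and 7695 to 11449 CPM in Tg7. At 12w, macrophage markers were 96.3 to 110 CPM in Wt against 84.0 to 90.3 CPM in Tg7. Erythroid markers, with 1 of them at 0 in each group, were then 8.93 to 33.9 CPM against 40.4 to 57.9 CPM. Schwann cell markers were 8.86 to 19.3 CPM against 20.5 to 23.5 CPM at that age. The groups overlapped at 2w for macrophage, erythroid and Schwann cell markers. The share of all counts in mitochondrial messenger RNA also differed without overlap, at 3.55% to 3.77% in 2w Wt against 3.94% to 4.74% in 2w Tg7, and at 3.98% to 4.52% in 12w Wt against 3.47% to 3.91% in 12w Tg7. Acinar markers (12 genes) ranged from 17.8 to 19.4 CPM in 2w Wt against 25.7 to 31.4 CPM in 2w Tg7, with 3 and 1 of them at 0, and from 20.9 to 27.1 CPM in 12w Wt against 16.3 to 18.1 CPM in 12w Tg7, with 3 at 0 in each. The part of these cells and of the mitochondrial share in the results for the ribosomal protein genes was not tested.

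Genes that work with the ribosome were taken from lists written with earlier results of these data known. The values of these lists and of their genes are on the TMM scale only. Scaling by library size alone moved the median of all genes to 0.19 at 2w and 0.43 at 12w. Whether the list medians and fold changes below keep their sign under that scaling was not tested. Of the ribosomal proteins that the naming rule misses, Fau had, at 2w, an estimate of 0.35 ± 0.17 (adjusted p = 0.208) and Gnb2l1, which encodes the scaffold Rack1, 0.26 ± 0.13 (adjusted p = 0.210). Other TOP messages (22 tested) had a median of 0.24 at 2w with Vim called higher. Elongation factors (12 tested) had a median of 0.21 with none called in edgeR (2 higher and 2 lower at an unadjusted p under 0.05). At that unadjusted threshold, 15.7% of all genes were higher and 11.2% lower. At 12w the medians were 0.11 and 0.07. Vim (1.62) and Gas5 (0.39) were then called higher and Pabpc1 (−0.44) lower among the TOP messages, and Eef1a2 (1.21) higher and Eif5a2 (−0.89) lower among the elongation factors, all named after their values were seen. Genes with names from Eif1 to Eif6 other than Eif5a (54 tested) had a median of −0.16 at 2w and −0.19 at 12w. Of these, 1 and 13 were called lower and 0 and 1 higher. This list was taken by name, and Eif2ak3 and Eif4ebp2, both among those lower at 12w, are not initiation factors. Eif4ebp2 is also counted among the growth control genes below. For the lists here, 6.07% of all genes were called higher and 4.55% lower at 2w, and 12.5% and 11.2% at 12w.

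Ribosome assembly genes, which encode the nucleolar machinery that puts subunits together, had medians opposite in sign to those of the ribosomal proteins on the TMM scale. Of 74 tested, 7 were lower and 0 higher in Tg7 at 2w, with a median of −0.21, and 18 were lower and 0 higher at 12w, with a median of −0.20; this list includes Rpl7l1 and Rps19bp1. The shares lower stand against 4.55% of all genes at 2w and 11.2% at 12w, and those higher against 6.07% and 12.5%. Of those called at both ages, chosen after their values were seen, Nolc1, a nucleolar phosphoprotein, fell by 0.52 at 2w and by 0.65 at 12w on the log2 scale, and Pes1, a factor of large-subunit maturation, fell by 0.54 and by 0.57. RNA polymerase I and its factors (18 tested) had medians of 0.04 and −0.02, with 1 called lower at each age, against the same shares of all genes.

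Growth control genes (26 tested) had 2 called lower and 1 higher at 2w and 8 lower and 1 higher at 12w, against 4.55% and 6.07% of all genes at 2w and 11.2% and 12.5% at 12w. Larp1, the regulator of TOP messages, fell by 0.43 at 2w (adjusted p = 0.0246) and by 0.48 at 12w (adjusted p = 0.00665), and Myc, a transcription factor that activates ribosomal protein genes, rose by 0.85 at 2w (adjusted p = 0.0111) with 0.14 at 12w (adjusted p = 0.660). Both were named after their values were seen. The nuclear genes for proteins of the mitochondrial ribosome (75 tested) had a median of 0.02 at 2w, with none called in edgeR. At an unadjusted p under 0.05, 1 was higher and 6 lower at 2w, against 15.7% and 11.2% of all genes. At 12w the median was −0.13, with 4 called lower against 11.2% of all genes. With age in Wt, they had a median of 0.28 with 10 called higher against 7.90% of all genes.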

How the data were processed

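The deposited table holds the authors' raw read counts per Ensembl gene for 12 libraries. NEB Ultra II libraries were read as paired ends (HiSeq2500). After trimming in Trimmomatic, the authors' alignment used TopHat2 2.0.11 on mm9, and featureCounts gave the counts; its version, its strand setting and what it did with reads that fit several genes are not given in the sources used. Total counts ranged from 11610697 to 17515758, and every column was used.

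Gene names, exons and 3′ UTRs came from the mm9 annotation (GENCODE M1); 786 row identifiers, with 0.0727% of counts, had no name there. Pseudogene rows of the family, left out, held 13276 counts (0.312% of the members' counts). Exons of other genes overlap those of 26 members, in 6 over 25% or more of their exon bases.

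The low-count filter was filterByExpr at its minimum count of 10 and total of 15. The 4 group means were then fitted in 1 model in edgeR 4.0.16 (TMM factors, glmQLFit, glmQLFTest); p was adjusted by Benjamini-Hochberg over the 15961 genes tested, with 0.05 as the threshold. Each SE is the size of the estimate over the square root of its F, and p values measure only the spread between these pooled samples. The scripts were tested on simulated data. The fit on the member pool replaced library sizes by the summed member counts. A shared replicate number was not taken as a pair, since correlations of same-numbered deviations ran from −0.167 to −0.0112.

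Alternatives were DESeq2 1.42.0, the 2 groups alone, library size alone, upper-quartile factors, TMM without Ins1 and Ins2, DESeq2 size factors, no filter, a filter of 50 counts in 3 libraries, the replicate number as a block, GC and length offsets, and each library left out. Named genes were Rplp0, the near copies and their parents, a set of members with known roles, up to 5 called members with the highest and lowest fold change in each comparison of Tg7 with Wt, the difference and the pool fit, and the 3 highest and 3 lowest levels per kilobase; those called with age, the members named without a call for their place in a ranking, the ratios of near copies, the length classes and the seed matches were added after values were seen. Single results for 1 called member, 1 listed gene and 1 seed match are not reported here. The members and lists were chosen with earlier results of these data known. Software further included R 4.3.3, limma 3.58.1, Python 3.11.15, Biopython 1.88 and matplotlib 3.10.9.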

Additional observations from a re-analysis of the deposited data

How the results depend on the processing

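The median log2 fold change of the members kept its sign at 2w in every alternative. At 12w it was 0.60 with library size alone, where the median difference between ages became 0.061 and the median with age in Wt −0.065.

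The share of all genes called is given in brackets for some of these fits. In the fit as reported, 6.07% of all genes were called higher at 2w, 12.5% at 12w and 7.90% with age in Wt. Members called higher at 2w numbered 42 with library size alone (10.5%), 12 with DESeq2 (8.66%) and 10 on the 2 groups alone (7.61%). They numbered 7 with GC and length offsets (with 1 lower) and 2 without Ins1 and Ins2 in the TMM factors. At 12w, 64 were higher (32.6%) and 0 lower (2.26%) with library size alone, and 2 were higher with DESeq2 (13.1%). There were 3 higher with upper-quartile factors, 2 with GC and length offsets and with the stricter filter, and 1 with no filter. With age in Wt, 13 were higher with DESeq2 (10.7%), and 0 with library size alone (2.04%) and on the 2 groups alone (3.33%). There were 10 with no filter, 2 without the insulin genes, and 1 with upper-quartile factors and with GC and length offsets. With age in Tg7, 5 were higher on the 2 groups alone (11.3%). On the member pool, DESeq2 called 3 lower at 2w (12.1%) and 2 at 12w (9.34%). Taking Ins1 and Ins2 out of the total moved the mean share to 2.15% in 2w Wt, 2.35% in 12w Wt and 2.88% in 12w Tg7.

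Leaving out 1 library gave 0 to 21 higher (2.29% to 9.80% of all genes) and 0 to 1 lower (2.29% to 8.86%) at 2w. At 12w it gave 0 to 3 higher (8.55% to 13.0%) and 1 to 3 lower (6.17% to 12.4%). There were 0 to 44 higher with age in Wt (3.41% to 11.4%) and 0 to 3 with age in Tg7 (3.81% to 10.5%). On the member pool, 0 to 3 were lower at 2w and 0 to 1 at 12w. Medians ranged from 0.23 to 0.49 at 2w and from −0.03 to 0.24 at 12w.

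With the replicate number as a block, 23 members were higher at 2w (8.46% of all genes), 2 lower at 12w (9.90%), 40 higher with age in Wt (11.7%) and 3 with age in Tg7 (10.3%); the numbers are not known to pair libraries.

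Among named members without a call, signs turned under single alternatives. With library size alone, log2 fold changes at 12w became 0.41 for Rplp0, 0.24 for Rpl36al, 0.45 for Rpl39, 0.29 for Rps27, 0.25 for Rplp1 and 0.33 for Rps19bp1, and at 2w 0.081 for Rpl22l1. At 12w, upper-quartile factors gave 0.029 for Rplp0 and 0.018 for Rpl39, the block −0.93 for Rpl3l, −0.11 for Rps27l, −0.10 for Rpsa and −0.027 for Rpl13a, and Rpsa was −0.028 without the insulin genes and −0.022 on the 2 groups alone. Leaving out 1 library gave, at 12w, −0.15 to 0.019 for Rplp0, −0.95 to 1.68 for Rpl3l, −0.047 to 0.33 for Rpl36a, −0.35 to 0.32 for Rpl39, −0.42 to 0.15 for Rps27, −0.16 to 0.34 for Rps27l, −0.0043 to 0.34 for Rplp2, −0.16 to 0.14 for Rpsa, −0.085 to 0.24 for Rpl13a and −0.0092 to 0.16 for Rps27a, and at 2w −0.24 to 0.12 for Rpl22l1. Causes were not tested. Counts per library limit Rpl3l only.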
